A study of Mus musculus with 23 samples.

Results

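The circadian clock genes Per1, Per2, Cry1, Cry2, Clock, Dbp and Tef were examined in the nucleus accumbens of mice bred for their response to methamphetamine. All probe sets that the platform annotation assigns to these symbols were taken, which gave 9 probe sets for 7 genes, of 8251 genes named on the array. The 23 arrays each measured 1 pool of tissue, described in the labels as a 4-way pool, from 2 selected lines that derive from a cross of C57BL/6J and DBA/2J. HMACT mice were bred for a high and LMACT mice for a low acute response to methamphetamine (MA), a psychostimulant that releases dopamine. There were 6 pools of HMACT mice after 2 mg/kg MA, 6 of HMACT mice after saline (SAL), 5 of LMACT mice after 2 mg/kg MA and 6 of LMACT mice after SAL, all collected 1 hour after the injection. Mean age was 115.42 ± 35.0 days in HMACT MA pools and 113.88 ± 38.2 days in HMACT SAL pools (SD, n = 6 each). It was 76.9 ± 21.7 days in LMACT MA pools (SD, n = 5) and 76.3 ± 25.3 days in LMACT SAL pools (SD, n = 6). The labels describe 1 pair of selected lines, so a difference between them is a difference between these lines as bred, and they do not give the clock time of collection.

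The mammalian clock is a loop of transcription and translation that runs in most cells of the body, the striatum included. The CLOCK protein pairs with BMAL1 and binds E-box sequences to switch on the Per and Cry genes, whose products then hold their own transcription back. The same E-box drive acts on Dbp, which encodes a PAR-domain leucine zipper factor. DBP and its relative TEF bind D-box sequences in other genes. Per1 is also an early-response gene in the brain, induced through CREB at cAMP response elements, and psychostimulants are known to affect it in the striatum.

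The promoter sequences of Per1 and Tef are shown because the transcripts of these 2 genes covaried across the 23 pools in the data below, and that of Dbp, the other PAR-domain factor, is shown beside them for comparison. Each window is from RefSeq, on GRCm38.p6, and runs from 250 bases before to 50 bases after an annotated start, written 5′ to 3′ on the strand of the gene. Capitals mark the E-box (CACGTG), the half-site of the cAMP response element (CRE; TGACG) and the D-box (TTATGNAA), each searched on both strands. No match overlapped another.
Per1, first start, chr11:69098699-69098998, plus strand: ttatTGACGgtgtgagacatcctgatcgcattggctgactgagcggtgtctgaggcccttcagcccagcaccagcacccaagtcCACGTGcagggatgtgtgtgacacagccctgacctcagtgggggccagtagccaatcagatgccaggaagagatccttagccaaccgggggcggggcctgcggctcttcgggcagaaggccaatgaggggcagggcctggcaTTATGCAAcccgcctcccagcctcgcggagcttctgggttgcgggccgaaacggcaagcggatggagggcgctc
Per1, second start, chr11:69099902-69100201, plus strand: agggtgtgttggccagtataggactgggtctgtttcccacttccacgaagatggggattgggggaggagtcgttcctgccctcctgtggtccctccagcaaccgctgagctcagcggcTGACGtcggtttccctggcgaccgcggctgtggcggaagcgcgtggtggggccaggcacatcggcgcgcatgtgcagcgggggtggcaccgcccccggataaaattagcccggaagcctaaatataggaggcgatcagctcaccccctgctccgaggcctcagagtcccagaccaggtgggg
Dbp, chr7:45704997-45705296, plus strand: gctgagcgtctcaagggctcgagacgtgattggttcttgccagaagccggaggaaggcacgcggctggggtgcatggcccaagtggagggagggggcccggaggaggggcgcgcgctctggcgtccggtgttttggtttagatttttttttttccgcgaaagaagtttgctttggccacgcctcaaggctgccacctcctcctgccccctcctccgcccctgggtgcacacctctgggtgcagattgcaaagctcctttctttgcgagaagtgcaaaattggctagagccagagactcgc
Tef, first start, chr15:81802423-81802722, plus strand: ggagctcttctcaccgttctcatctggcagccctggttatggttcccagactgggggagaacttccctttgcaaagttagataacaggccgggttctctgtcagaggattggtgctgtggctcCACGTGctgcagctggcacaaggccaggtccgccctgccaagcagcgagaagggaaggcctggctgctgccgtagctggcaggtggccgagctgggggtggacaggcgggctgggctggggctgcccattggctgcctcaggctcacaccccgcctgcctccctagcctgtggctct
Tef, second start, chr15:81811164-81811463, plus strand: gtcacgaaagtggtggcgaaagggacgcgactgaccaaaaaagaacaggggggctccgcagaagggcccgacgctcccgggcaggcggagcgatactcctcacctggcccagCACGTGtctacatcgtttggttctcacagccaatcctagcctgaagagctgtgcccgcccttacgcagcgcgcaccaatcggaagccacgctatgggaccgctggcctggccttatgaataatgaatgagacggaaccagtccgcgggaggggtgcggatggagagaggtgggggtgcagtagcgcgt
The first Per1 window held all 3 motifs, with the E-box starting at -166, the CRE half-site at -246 and the D-box at -24 from the start of transcription. The second Per1 window held a CRE half-site at -132 and neither of the others. The Tef windows held 1 E-box each, at -127 in the first and at -138 in the second. The Dbp window held none of these motifs. Among the windows that are not printed, that of Cry1 held an E-box at -60 and a CRE half-site at -8, that of Cry2 held a CRE half-site in the reverse direction at -209, and the 3 windows of Clock held none. Windows were given for 6 of the 7 genes, and Per2 had none. Of 32851 windows of the same length across the mouse genome, 7.15% held the E-box, 20.8% the CRE half-site and 3.39% the D-box. These matches describe the letters in the windows only.

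The arrays share a floor that limits what can be read for some of these genes. Values below 2.3 on the log2 scale recur across probe sets and were treated as the floor, where 44.2% of all values lay. Striatal identity was checked with 5 markers of projection neurons present on the array: Penk, Tac1, Pdyn and Drd2 were above the floor on all 23 arrays, while Rgs9 was at the floor on all 23. On the first principal component of the residuals from group means, which held 60.6% of the residual variance over 6831 probe sets, 4 arrays had the highest scores. These were HMACT MA replicate 3, HMACT SAL replicates 3 and 5 and LMACT MA replicate 4, with scores from 28.2 to 64.5, against -39.7 to 20.1 on the other 19 arrays. A cut at 3.5 median absolute deviations above the median, 42.0, was passed by all of these but HMACT SAL replicate 5 (28.2). That array was grouped with the others after the values were seen. The next score was 20.1, in HMACT MA replicate 2. The mean log2 level of 7 microglial markers was 6.75 to 7.90 on those 4 arrays and 5.81 to 6.66 on the other 19, with 1 of the 7 at the floor on all arrays. Other marker lists also reached higher on those 4 arrays, with overlap: blood was 5.31 to 6.77 against 4.59 to 5.70, oligodendrocytes 7.36 to 8.20 against 6.50 to 7.77 and projection neurons 8.04 to 8.59 against 7.46 to 8.36. The blood list had 2 genes on the array, of which Alas2 was at the floor on 22 arrays. Of 5 oligodendrocyte markers, Cnp was at the floor on all arrays. Astrocyte levels were 8.25 to 8.42 on the 4 arrays and 8.004 to 8.46 on the others. The part of cell content in the results below was not tested. In bulk tissue, fewer cells of a type and less RNA per cell cannot be told apart.

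Per1, a repressor of the loop and an early-response gene, was well above the floor in all pools. Its log2 level in HMACT MA pools was 7.82 at the lowest, 8.33 at the median and 9.32 at the highest, against 8.05, 8.51 and 9.27 in HMACT SAL pools. In LMACT MA pools it was 8.37, 8.56, 9.30, 7.75 and 8.27 in replicates 2 to 6, against a lowest value of 7.22, a median of 7.90 and a highest of 8.68 in LMACT SAL pools. The groups overlapped throughout, and the highest value of each group other than LMACT SAL came from an array with a high component score. Only 2 of 6 HMACT MA pools, and 4 of 5 LMACT MA pools, lay above the mean of the SAL pools of their line.

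Per2, the partner repressor, gave weak signal, with log2 levels from 3.35 to 4.58. In HMACT MA pools it was 3.77 at the lowest, 4.21 at the median and 4.36 at the highest, against 3.76, 4.18 and 4.28 in HMACT SAL pools. In LMACT MA pools it was 4.58, 4.52, 4.51, 3.35 and 4.38 in replicates 2 to 6, against 3.91, 4.32 and 4.50 for the lowest, median and highest LMACT SAL pools. Single low pools set the lower end of 3 groups: HMACT MA replicate 4, HMACT SAL replicate 5 and LMACT MA replicate 5.

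Cry1, which encodes a light-independent repressor that acts with the PER proteins, was represented by 3 probe sets that disagreed. The probe set 94420_f_at read 9.17 to 10.6 on the log2 scale on all 23 arrays, while 161225_r_at and 94421_r_at were at the floor on all 23. The suffix f marks, in the maker's naming, probes that can match a family of related sequences, so the level of 94420_f_at is uncertain as a measure of Cry1. By that probe set the log2 level was 9.17, 9.92 and 10.2 for the lowest, median and highest HMACT MA pools, against 9.20, 9.93 and 10.3 in HMACT SAL pools. It was 9.53, 9.73, 10.1, 10.6 and 9.78 in LMACT MA replicates 2 to 6, against 9.34, 9.84 and 10.1 for the lowest, median and highest LMACT SAL pools. All 4 groups overlapped. Cry2, the second cryptochrome, was at the floor on 21 arrays. The exceptions were 2.33 in HMACT MA replicate 5 and 2.58 in LMACT MA replicate 4, so no level can be given for Cry2 in any group.

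Clock, the positive arm of the loop, lay low on the scale and spread most in the HMACT line. Its log2 level in HMACT MA pools was 2.39 at the lowest, 4.17 at the median and 4.71 at the highest, against 2.90, 3.70 and 4.45 in HMACT SAL pools. It was 4.57, 4.43, 2.91, 4.68 and 4.73 in LMACT MA replicates 2 to 6, against 4.36, 4.61 and 4.87 for the lowest, median and highest LMACT SAL pools. The LMACT pools other than LMACT MA replicate 4 fell in a narrow band, and 4 of 6 HMACT SAL pools lay below every LMACT SAL pool. The SD was 0.904 in HMACT MA, 0.724 in HMACT SAL, 0.765 in LMACT MA and 0.164 in LMACT SAL pools. Without LMACT MA replicate 4, the SD of LMACT MA pools was 0.132 (n = 4).

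Dbp, an output gene of the loop, had log2 levels of 6.11, 6.64 and 7.37 in the lowest, median and highest HMACT MA pools, against 5.98, 6.73 and 7.51 in HMACT SAL pools. In LMACT MA replicates 2 to 6 it was 6.91, 6.19, 7.52, 7.37 and 6.61, against 6.26, 6.63 and 7.39 for the lowest, median and highest LMACT SAL pools. Every group spanned more than 1 log2 unit, and none stood clear of another. Tef, the second PAR-domain factor, had log2 levels of 11.2, 11.4 and 12.1 in the lowest, median and highest HMACT MA pools, against 11.3, 11.7 and 12.4 in HMACT SAL pools. In LMACT MA replicates 2 to 6 it was 11.7, 11.3, 11.9, 10.4 and 11.2, against 11.1, 11.1 and 11.3 for the lowest, median and highest LMACT SAL pools. The LMACT SAL pools were the tightest, with an SD of 0.0871 (n = 6), and 5 of 6 HMACT SAL pools lay above all of them.

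**Figure D1:**
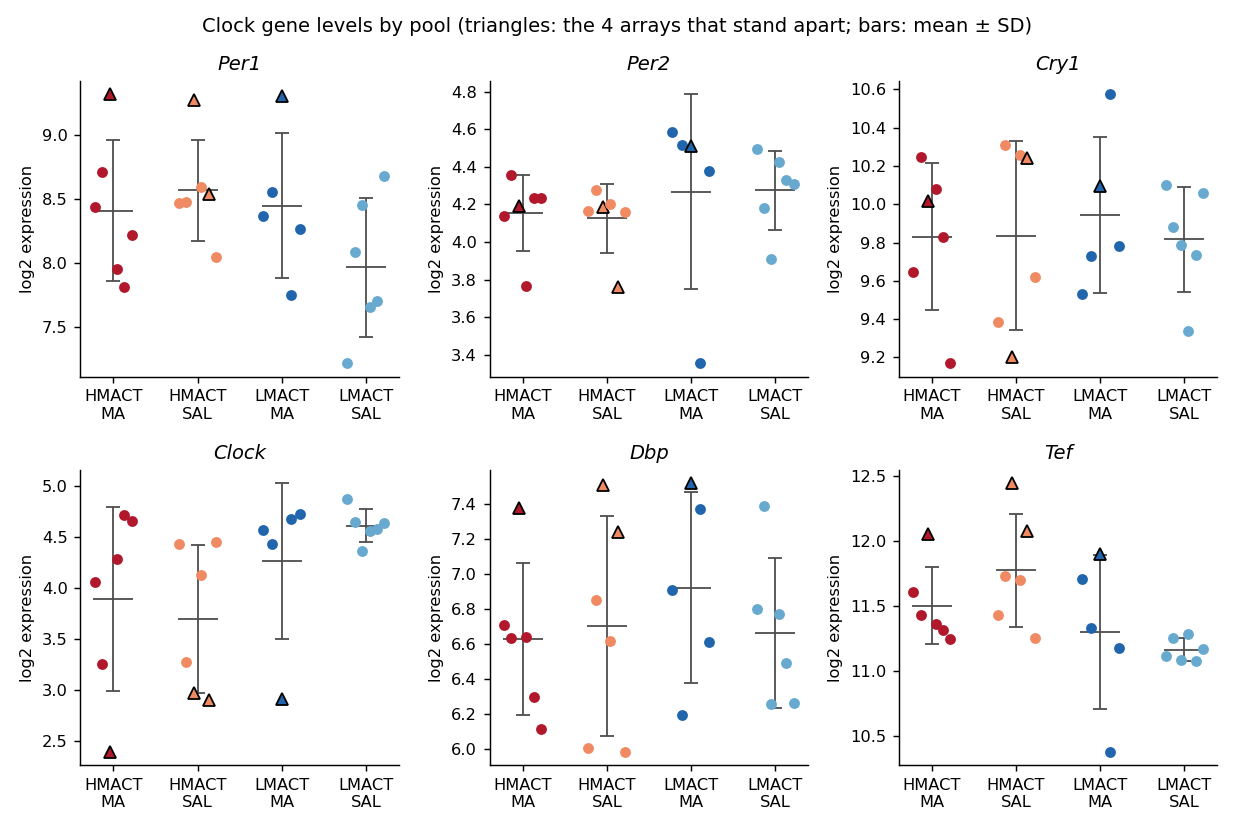
Log2 expression of 6 clock genes in each pool, by line and injection, with the mean and SD as bars and triangles for the 4 arrays with the highest component scores. The MA and SAL pools overlap in both lines for every gene, and the LMACT SAL pools of Clock (4.36 to 4.87) and Tef (11.1 to 11.3) form narrow bands beside wider HMACT ranges.

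The first comparison asked whether MA altered the clock genes 1 hour after injection. No member was called in any MA comparison by limma at a Benjamini-Hochberg adjusted p under 0.05 over 12422 probe sets. Few probe sets were called at all: 2 (0.0161%) for the mean effect over both lines, 1 (0.00805%) in HMACT and 0 (0%) each in LMACT and for the line by MA interaction. At an unadjusted p under 0.05 there were 155 probe sets (1.25%), 180 (1.45%), 370 (2.98%) and 270 (2.17%) in these 4 comparisons, and none of the members was among them. Without the 4 arrays with the highest scores, no member above the floor was called either. The 6 members above the floor were positive in 4 and negative in 2 cases for the mean effect, with a median log2 difference of 0.036, against -0.0047 for all probe sets above the floor on most arrays.

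Among the repressors, Per1 had the widest estimates. Its mean level was 8.41 ± 0.551 in HMACT MA and 8.57 ± 0.396 in HMACT SAL pools (SD, n = 6 each), a log2 difference of -0.16 (SE 0.295). In LMACT it was 8.45 ± 0.563 after MA (SD, n = 5) and 7.97 ± 0.545 after SAL (SD, n = 6), a log2 difference of 0.48 (SE 0.310), with a 95% interval from -0.16 to 1.13. That estimate amounts to a 1.40-fold higher level after MA in LMACT, and its limma adjusted p was 1. Without the 4 arrays with the highest scores it was 0.27. The difference between the lines in their response was -0.64 (SE 0.428) with a limma adjusted p of 0.884 for the interaction. In the lot of 15 arrays alone that difference was -0.071, with MA effects of 0.11 in HMACT and 0.18 in LMACT, and without the 4 arrays with the highest scores it was -0.44. Averaged over lines, the MA minus SAL log2 difference of Per1 was 0.16, with a 95% interval from -0.28 to 0.61.

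For Per2 the mean MA minus SAL log2 difference was 0.011 (95% interval -0.25 to 0.27), and for Cry1 it was 0.060 (95% interval -0.28 to 0.40). Smaller changes than these bounds could not be told from 0 with this number of pools.

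Clock and the output genes were no different in this respect. Clock had a mean MA minus SAL log2 difference of -0.074 (95% interval -0.68 to 0.53), made up of 0.20 in HMACT and -0.35 in LMACT. Without LMACT MA replicate 4 the LMACT difference of Clock was -0.010 and the mean difference was 0.095. The HMACT difference of Clock ranged over 0.037 to 0.50 when 1 array was left out, with the lowest value without HMACT MA replicate 5 and the highest without HMACT MA replicate 3. Dbp had a mean difference of 0.093 (95% interval -0.35 to 0.54), with -0.073 in HMACT and 0.26 in LMACT. Tef had a mean difference of -0.069 (95% interval -0.40 to 0.27), with -0.27 in HMACT, where 1 of 6 MA pools lay above the SAL mean, and 0.13 in LMACT. The limma adjusted p was 1 for each of these in both lines.

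**Figure D2:**
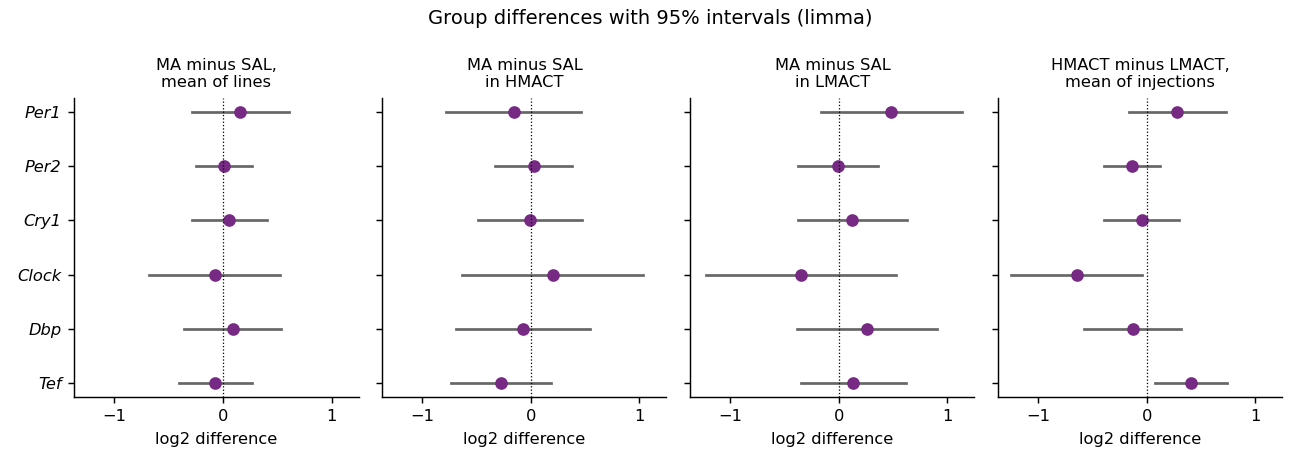
Log2 differences with 95% intervals from limma for 6 clock genes, in panels for the mean MA effect, the MA effect in HMACT, the MA effect in LMACT and the HMACT minus LMACT difference. Every interval of the MA panels crosses 0, and in the line panel those of Clock (-1.25 to -0.040) and Tef (0.074 to 0.74) do not, although neither passed the adjusted threshold.

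The second comparison asked how the lines differed, averaged over the injections. No clock gene was called, against 17 of 12422 probe sets (0.137%). At an unadjusted p under 0.05 there were 1334 probe sets (10.7%), and Tef and Clock were among them. Tef was higher in HMACT pools by a log2 difference of 0.41 (SE 0.160, limma adjusted p = 0.392), which is 1.33-fold. Clock was lower in HMACT pools, at -0.64 (SE 0.288, limma adjusted p = 0.440), which is 1.56-fold. The Tef difference was 0.20 between lines after MA and 0.61 after SAL, and the Clock difference was -0.37 after MA and -0.92 after SAL. For the other members the HMACT minus LMACT log2 difference was 0.28 (Per1), -0.047 (Cry1), -0.13 (Per2) and -0.13 (Dbp).

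Several measured features moved with the line and with these genes. HMACT pools were older, and with mean age as a covariate the log2 difference was 0.30 for Tef, -0.37 for Clock and -0.034 for Per1. The arrays also carry control probe sets at the 3′ and 5′ ends of Actb and Gapdh. The 3′ minus 5′ log2 difference, averaged over both genes, rises where labelled RNA is shorter. It was 2.35 ± 0.290 in HMACT MA and 2.11 ± 0.551 in HMACT SAL pools (SD, n = 6 each), against 2.87 ± 0.962 in LMACT MA pools (SD, n = 5) and 2.63 ± 0.134 in LMACT SAL pools (SD, n = 6). With it as a covariate, chosen after the values were seen, the HMACT minus LMACT log2 difference was 0.099 for Tef, -0.34 for Clock and -0.017 for Per1. The labels give chip lots of 15, 4, 3 and 1 arrays. The lot of 15 held all the HMACT pools over 100 days of mean age and few of the younger ones. In that lot alone the HMACT minus LMACT log2 difference was 0.61 for Tef and -0.93 for Clock. Without the 4 arrays with the highest scores it was 0.31 for Tef and -0.47 for Clock. None of these passed the threshold. With the component score as a covariate, Tef (limma adjusted p = 0.0163) and Clock (limma adjusted p = 2.22e-05) were called at the same log2 differences, among 1539 probe sets in all, but that score was built from the residuals of these values.

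Across pools, with group means removed, Tef followed the 3′ minus 5′ difference with Pearson r of -0.84 and Spearman rho of -0.75 (permutation p = 2.4e-04 and 6e-05, adjusted p = 0.00144 and 3.6e-04 over 6 genes). Without the 2 pools farthest from the median, HMACT SAL replicate 3 and LMACT MA replicate 5, r was -0.60. It was -0.83 without the 4 arrays with the highest scores and -0.85 in the lot of 15 arrays. Per1 had r of -0.61 and rho of -0.62 (permutation p = 0.00144 and 0.00102, adjusted p = 0.00432 and 0.00306). Its r was -0.51 without the 2 farthest pools, -0.43 without the 4 arrays with the highest scores and -0.55 in the lot of 15 arrays. Per2 had r of -0.72 (permutation adjusted p = 0.0531), which rested on LMACT MA replicate 5: without that pool r was -0.25. Clock had r of 0.45, Cry1 0.46 and Dbp -0.18, with permutation adjusted p of 0.0944, 0.0884 and 0.500. These too moved with single pools. Without LMACT MA replicate 5, r was 0.55 for Clock, 0.25 for Cry1 and -0.62 for Dbp, and without the 4 arrays with the highest scores it was 0.17 for Clock, 0.46 for Cry1 and 0.31 for Dbp. Without the 2 farthest pools r was 0.58 for Clock, -0.17 for Cry1 and -0.53 for Dbp.

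**Figure D3:**
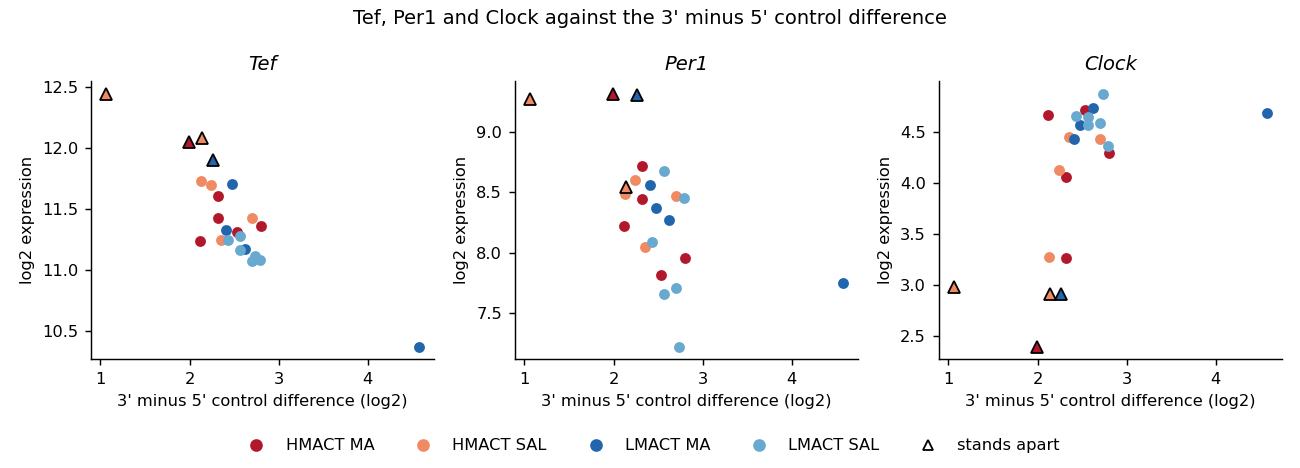
Log2 expression of Tef, Per1 and Clock in each pool against the mean 3′ minus 5′ log2 difference of the Actb and Gapdh control probe sets, coloured by group, with triangles for the 4 arrays with the highest component scores. Tef has its highest value (12.4) at the lowest control difference (1.07, HMACT SAL replicate 3) and its lowest value (10.4) at the highest control difference (4.57, LMACT MA replicate 5).

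The last comparison asked whether the clock genes covaried between pools once group means were removed. Of 15 pairs among 6 genes, 4 had a permutation adjusted p under 0.05 by Pearson r over 23 pools, and 5 by Spearman rho. Per1 and Tef rose and fell together, with r of 0.69 (rho 0.66, permutation adjusted p = 0.00105). Clock ran opposite to Per1 at r of -0.74 (rho -0.67, permutation adjusted p = 9e-04), to Tef at r of -0.72 (rho -0.76, permutation adjusted p = 0.00244) and to Dbp at r of -0.69 (rho -0.64, permutation adjusted p = 0.00244). Dbp and Tef had r of 0.53 and rho of 0.61 (permutation adjusted p = 0.0745 and 0.0190). Without the 2 pools farthest from the median of the gene named first, r was -0.55 for Per1 and Clock, 0.55 for Per1 and Tef, -0.58 for Clock and Tef, -0.57 for Clock and Dbp and 0.33 for Dbp and Tef.

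By Pearson r, much of this covariation lay in the 4 arrays with the highest component scores. Set against the pools of their group outside these 4, Clock was below and Dbp and Tef were above all of them on each of the 4 arrays. Clock differed from the mean of those pools by -1.80 log2 units in HMACT MA replicate 3, by -1.10 and -1.17 in HMACT SAL replicates 3 and 5, and by -1.69 in LMACT MA replicate 4. Per1 was above all of those pools on 3 of the 4. In the other 19 pools no pair passed by Pearson r, at -0.50 for Per1 and Clock, 0.43 for Per1 and Tef, -0.33 for Clock and Tef, -0.32 for Clock and Dbp and 0.014 for Dbp and Tef. By rank, Per1 and Clock still passed in these 19 pools (rho -0.66, permutation adjusted p = 0.0387). The other pairs named did not pass by rank. Their rho was -0.62 for Clock and Tef, 0.51 for Per1 and Tef, 0.32 for Dbp and Tef and -0.15 for Clock and Dbp. Single arrays also moved calls: without HMACT MA replicate 3 Clock and Tef had r of -0.67 (permutation adjusted p = 0.0519), and without LMACT MA replicate 5 Dbp and Tef had r of 0.87 (permutation adjusted p = 1.5e-04).

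**Figure D4:**
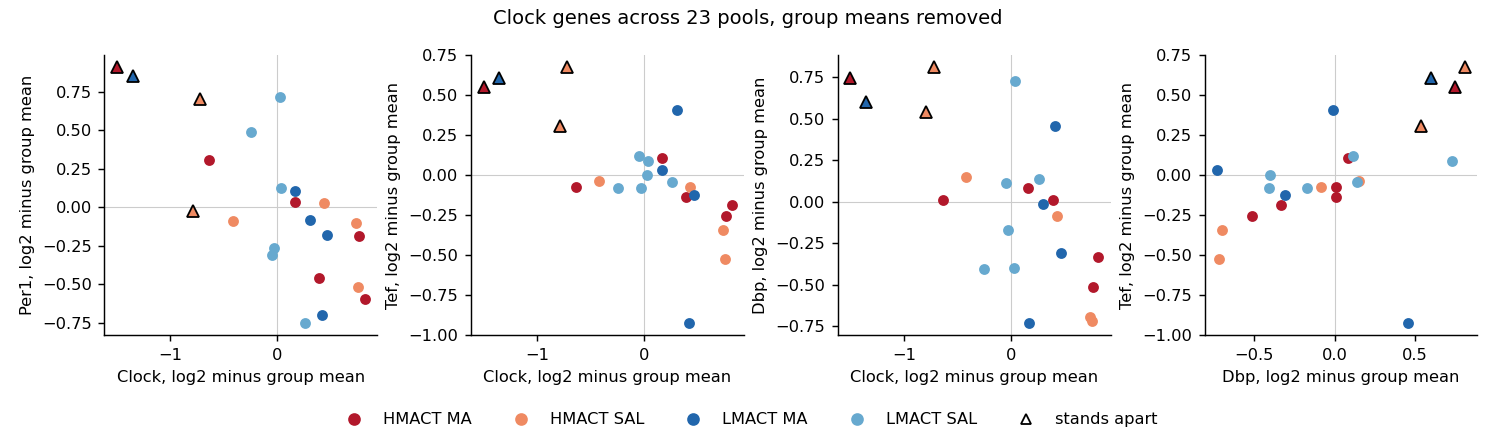
Pairs of clock genes across 23 pools after subtraction of group means, in log2 units, coloured by group, with triangles for the 4 arrays with the highest component scores. Over all pools r is -0.74 for Per1 and Clock, -0.72 for Clock and Tef, -0.69 for Clock and Dbp and 0.53 for Dbp and Tef, and the triangles sit at one end of each cloud.

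Set against the rest of the array, Clock tracked the component more closely than most probe sets, at r of -0.96, a distance from 0 reached by 1.47% of probe sets. Dbp at 0.77, Tef at 0.75 and Per1 at 0.72 were ordinary in this respect, since 30.9%, 33.4% and 36.7% of probe sets lay as far from 0. Per2 at 0.058 and Cry1 at 0.19 hardly followed it. The component was built from these same arrays, so these values are a description with no test. Likewise, 8.56% of probe sets correlated with Per1 at least as highly as Tef did, and 25.9% correlated with Dbp at least as highly as Tef did, a share of 57.2% in the other 19 pools. On the negative side, 1.97% of probe sets had a lower r with Per1 than Clock had, 4.85% had a lower r with Tef and 8.22% had a lower r with Dbp. In the other 19 pools these shares were 3.96% for Per1, 14.8% for Tef and 17.6% for Dbp. Seen from Clock the same pairs were less rare. A lower r with Clock was found for 16.7% of probe sets when set against Per1, 19.1% against Tef and 22.6% against Dbp. Over the other 19 pools those shares were 21.1%, 34.7% and 35.2%.

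The probe sets most like each member across the 23 pools, by Pearson r with group means removed, were not other clock genes. For Per1 they were Fbl (r = 0.95), Cdc37 (0.94) and Eef2 (0.93). For Tef they were Ldah (0.96), Trim28 (0.94) and Prpsap1 (0.94), and for Clock they were Selenot (0.98), Scp2 (0.98) and Ogt (0.97). Dbp had Rnpepl1 (0.90), Chchd10 (0.90) and Mrpl23 (0.89), Per2 had Tmem50b (0.88), Ankrd46 (0.85) and Asns (0.84), and Cry1 had Diaph1 (0.88), Ube2r2 (0.86) and Pla2g12a (0.84). These pools share the array component and the RNA ends described above.

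Of 20 further clock genes listed, 13 were on the array. Per3 and Nr1d1 were at the floor on most arrays, and Npas2 read the same low value, 2.301, on 21 of 23, which left 10 genes. Of these 10, Timeless varied little, reading 4.499 on 9 arrays, with an SD of 0.0857 over all 23. By limma none of the 13 was called in any of the 5 comparisons, and none had an unadjusted p under 0.05. For the mean MA effect 4 of the 10 were positive, Timeless among them at 0.028, and 6 negative. The smallest unadjusted p-values were those of Csnk1e, Btrc, Usp2 and Per3. Csnk1e encodes a casein kinase that phosphorylates PER proteins and had a mean MA minus SAL log2 difference of -0.22 (SE 0.188). Btrc, which encodes a subunit of a ubiquitin ligase that acts on PER, had -0.26 (SE 0.240), with -0.62 in HMACT and 0.096 in LMACT. Usp2, a deubiquitinase, had 0.13 (SE 0.131), and Per3 was at the floor on 22 of 23 arrays. Arntl, Nr1d1 and Npas2 are named after their values were seen. Arntl, which encodes BMAL1, the partner of CLOCK, had log2 levels of 5.60 ± 0.283 in HMACT MA and 5.68 ± 0.177 in HMACT SAL pools (SD, n = 6 each), and 5.76 ± 0.312 in LMACT MA (SD, n = 5) and 5.84 ± 0.142 in LMACT SAL pools (SD, n = 6), a mean MA difference of -0.081 (SE 0.0974). Nr1d1, a repressor in the second loop, was at the floor on 22 arrays.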

How the data were processed

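RNA from 23 pools of mouse nucleus accumbens was hybridised as biotin-labelled cRNA to Affymetrix arrays. Groups follow the labels. The authors' deposited table holds 1 log2 value for each probe set on each array. The log2 scale was inferred from the range of the values, 2.23 to 16.4. Whether the values had been normalized before deposit was not established, and quantile normalization was run as an alternative. No method of normalization is given in the sources used here, and R 2.7.1 is named per the submitters' processing notes without a role.

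Of 12488 probe sets, 66 controls were left out and 12422 were tested with limma 3.58.1 in R 4.3.3, with 4 group means in 1 fit, two-sided. A probe set was called at a Benjamini-Hochberg adjusted p under 0.05, and values under 2.3 count as the floor. Of the 10833 probe sets listed with 1 gene, 10817 matched RefSeq; 396 were listed with several genes and 1193 were not listed. Each gene is described by its probe set with the highest mean, and no other probe set of a member was above the floor. From 20 other clock genes those called were to be named, and otherwise the 4 with the smallest p for the mean MA effect, and for likeness the 3 genes with the highest r. Correlations used values with group means removed and 100000 permutations within groups, adjusted over 15 pairs.

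The members and lists were chosen with earlier results of these data known. Nothing in the labels says how animals were divided among pools, so p-values reflect only how far the pools differ, which may be technical. No 2 arrays were copies, the smallest mean absolute difference of a pair being 0.0736. In the labels, HMACT MA and SAL pools with the same replicate number share a chip lot, as do most such LMACT pools. In HMACT replicates 1, 2 and 4 they also have the same mean age. Pools of a line that share a replicate number did not all vary together (r from -0.61 to 0.87), and the main fit did not pair them. The replicate block, fitted as an alternative, gave a correlation of 0.28 within replicate numbers. The number of arrays and the signal over the floor limit the precision. Alternatives covered the normalization, a filter on dim probe sets, the unit of the fit, the variance model, chip lot, age, a replicate block, arrays that stand apart, the array component and leaving out each array. For chip lot, LMACT MA replicate 4, the only array with its lot number, was counted with the lot of 3 arrays. The split of HMACT pools by age, the 3′ minus 5′ covariate and the 4 arrays with the highest scores were settled after values were seen. Both the fit and the correlations were tested on simulated data.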

Additional observations from a re-analysis of the deposited data

Results flagged for a closer look

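In 24 combinations of gene and group checked for a single pool far from the rest, 4 pools stood off by Dixon's criterion, which chance meets in about 1 of 20 groups. Cry2 was not checked, since most of its values lie at the floor and have no order there. Per2 was low in 1 pool of 3 groups: 3.77 in HMACT MA replicate 4, where the other pools had 4.14 to 4.36, 3.76 in HMACT SAL replicate 5, where the others had 4.16 to 4.28, and 3.35 in LMACT MA replicate 5, where the others had 4.38 to 4.58. LMACT MA replicate 5 also had the highest 3′ minus 5′ control difference of all pools, at 4.57. Clock was 2.91 in LMACT MA replicate 4, the pool with the highest component score (64.5), against 4.43 to 4.73 in the other pools of that group. No explanation was tested for these pools.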

How the results depend on the processing

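The 6 members above the floor were followed under each alternative, and Cry2 and the further clock genes were not. None of the 6 was called in any comparison of groups, with 2 exceptions. These were Tef (limma adjusted p = 0.0163) and Clock (limma adjusted p = 2.22e-05) for the line difference with the array component as a covariate. That component was built from residuals of these data and raised calls over all probe sets to 1539. Other counts of called probe sets moved as follows. For the mean MA effect (2) they were 0 in the lot of 15 arrays, 5 with the replicate block, 5 without the 4 arrays that stand apart and 5 with the component. For MA in HMACT (1) they were 0, 2, 3 and 5 under these settings. For MA in LMACT (0) they were 1 without probe sets at the floor on 12 or more arrays, 1 with the replicate block, 1 without the 4 arrays and 177 with the component, and for the interaction (0) 298 with the component. For the line difference (17) they were 30 after quantile normalization, 39 without probe sets at the floor, 1 in the lot of 15 arrays, 2 with mean age, 2 with the replicate block, 61 without the 4 arrays and 6 with the 3′ minus 5′ covariate. Leaving out 1 array gave 1 to 4 calls for the mean MA effect (4 without HMACT SAL replicate 3 and 1 without LMACT MA replicate 2), 1 to 2 in HMACT (2 without HMACT SAL replicate 6), 0 to 2 in LMACT (2 without HMACT SAL replicate 3), 0 for the interaction, and 7 to 55 for the line difference (7 without LMACT SAL replicate 1, 55 without LMACT MA replicate 4, and 8 to 11 without HMACT MA replicates 3 or 4, HMACT SAL replicate 5, LMACT MA replicates 3 or 6 or LMACT SAL replicate 2).

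Small differences changed sign. In the lot of 15 arrays, the MA log2 difference was -0.072 for Per2 over both lines, 0.12 (Dbp), -0.19 (Clock), 0.11 (Per1) and 0.14 (Cry1) in HMACT, and -0.15 for Tef in LMACT. There the interaction was 0.019 (Tef), -0.19 (Clock) and 0.031 (Cry1), and the line difference 0.059 (Dbp) and 0.042 (Per2). Without the 4 arrays the mean MA difference was 0.057 (Clock), -0.061 (Per2) and -0.0059 (Cry1), with 0.11 (Dbp) and -0.055 (Per2) in HMACT, -0.017 for Tef in LMACT and 0.0056 for the Dbp interaction. With the 3′ minus 5′ covariate the mean MA difference was 0.073 (Tef) and -0.019 (Cry1), that of Per2 in LMACT 0.085, and the line difference -0.017 (Per1) and 0.13 (Cry1). Per2 in LMACT was 0.0014 after quantile normalization and 0.0059 with the replicate block, the line difference of Per1 was -0.034 with mean age, and the age difference of Cry1 within HMACT was 0.096 without the 3 arrays that stand apart. The line difference of Tef ranged over 0.29 to 0.48 and that of Clock over -0.81 to -0.49 when 1 array was left out. Leaving out 1 array at a time turned the sign of 47 values, and LMACT MA replicate 5 and HMACT SAL replicate 5 were among the arrays that did so: without the first, the mean MA difference of Tef was 0.047 and that of Per2 in LMACT was 0.22, and without the second, the mean MA difference of Per2 was -0.026. Ranges when 1 array was left out were -0.16 to 0.095 (Clock), -0.019 to 0.13 (Cry1), -0.029 to 0.13 (Per2) and -0.14 to 0.047 (Tef) for the mean MA effect, -0.098 to 0.032 (Cry1) for the line difference, -0.26 to 0.026 (Cry1) and -0.19 to 0.11 (Per2) for the interaction, -0.13 to 0.13 (Cry1), -0.22 to 0.089 (Dbp) and -0.045 to 0.11 (Per2) for MA in HMACT, -0.032 to 0.23 (Cry1), -0.085 to 0.22 (Per2) and -0.017 to 0.37 (Tef) for MA in LMACT. For correlations they were -0.31 to 0.064 for Cry1 and Tef, -0.11 to 0.11 for Per1 and Cry1, -0.079 to 0.33 for Per1 and Per2, -0.19 to 0.062 for Per2 and Clock, -0.0059 to 0.59 for Per2 and Tef.

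The count of correlations called by Pearson r (4 of 15) was 0 without the 4 arrays, 0 with the component, and 3 to 5 when 1 array was left out. Clock and Dbp lost the call in the lot of 15 arrays (r = -0.70, permutation adjusted p = 0.104) and without the 2 farthest pools. Per1 and Dbp had r of -0.23 without the 4 arrays. With the component removed r was -0.53 for Per1 and Dbp, 0.34 for Clock and Dbp, 0.010 for Clock and Tef and -0.11 for Dbp and Tef. Without the 2 farthest pools r was 0.17 for Per2 and Clock and -0.081 for Per2 and Tef. Cry1 and Dbp were called without HMACT SAL replicate 3 (r = 0.57), and Dbp and Tef without LMACT MA replicate 3 (r = 0.58). The cause was not tested for any of these changes. The replicate block used a correlation of 0.28 within replicate numbers, and no member above the floor was called with it.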

Other observations

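The HMACT pools fall into 6 with a mean age over 100 days and 6 under 100 days, a split made after the values were seen. All the older pools were on the chip lot of 15 arrays, while the younger pools of replicates 4 and 5 were on other lots. Age and chip lot therefore largely go together in this split, and their parts were not tested. In limma, with injection in the model and 12 arrays, Per1 had a log2 difference of 0.59 (SE 0.213) between the older and the younger pools, with mean levels of 8.78 ± 0.409 in the older and 8.20 ± 0.319 in the younger (SD, n = 6 each). Its unadjusted p was 0.0217 and its limma adjusted p was 0.766. None of 12422 probe sets was called, and 703 (5.66%) had an unadjusted p under 0.05. Without the 3 HMACT arrays that stand apart, the difference of Per1 was 0.39. Clock differed by -0.79 (SE 0.415) and Tef by 0.29 (SE 0.201), with the same adjusted p. Of the 3 HMACT arrays that stand apart, replicate 3 after MA and replicate 3 after SAL are among the older pools and replicate 5 after SAL is among the younger. In LMACT, 2 pools were over 100 days, with Per1 at 8.27 and 8.68, and the 9 younger pools had Per1 from 7.22 to 9.30.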
